A study of Mus musculus with 16 samples.

Results

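The lung transcriptome of newborn mice that had died within a day of birth was compared with that of pups still alive at the end of the same period. The comparison used 7 of the 16 pooled RNA sequencing libraries of the series, 3 from dead pups (of 8) and 4 from live pups (of 8). These libraries were selected by measured values and not by their tissue label: each had at least 1000 CPM (counts per 1000000 counts) of Sftpc, the surfactant protein C gene of alveolar type 2 cells, and under 1000 CPM of Alb, the albumin gene of hepatocytes. Both genes therefore describe the selection and are given without a test.

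The study deposited lung and liver libraries of pups from crosses of mice heterozygous for a deletion of exon 2 of Man1a2 (Man1a2tm1.1Ahe, on C57BL/6J). Man1a2 encodes a Golgi alpha-mannosidase that trims N-linked glycans. Parents received NAC (N-acetylcysteine, a glutathione precursor) at up to 1 g per kg of body weight as a solution, or water alone (placebo), from 1 week before mating until delivery. Newborn pups were looked at every 8 h for 24 h, so dead pups could be younger at harvest than pups killed at the end. Null pups with either treatment all died very soon after birth, according to the paper. By its label, the dead null library thus came from pups that died at a much younger age than that of the survivors when killed. The survivors were decapitated, while dead pups were dissected when found. The dead libraries were a heterozygous placebo library labelled lung, a heterozygous NAC library labelled liver and a null placebo library labelled liver. The live libraries were a wild type (WT) NAC and a heterozygous NAC library labelled lung, and a WT placebo and a heterozygous placebo library labelled liver. Each library pooled RNA of 3 experiments, or of 2 for dead heterozygous pups. By their labels, none of the 7 came from dead WT or live null pups, or from null pups with NAC. Survival, age at harvest, time since death, the way of killing with its loss of blood and, in part, genotype therefore cannot be told apart here, and the p-values measure the spread between pools that differ in genotype.

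The tissue labels and the content of the libraries disagreed, so each library is named below by survival, genotype and treatment. In 4 of the 7 libraries the label was liver while the content was lung by the rule. Sftpc was at 5843, 4446, 11758 and 9665 CPM in the live WT NAC, live heterozygous NAC, live WT placebo and live heterozygous placebo libraries. It was at 9161, 9257 and 7025 CPM in the dead heterozygous placebo, dead heterozygous NAC and dead null placebo libraries. All later values keep this order, with the 4 live libraries before the 3 dead ones. Alb lay between 10.5 and 135 CPM in these 7 libraries. Just outside the rule lay the null placebo library of dead pups labelled lung, with Sftpc at 5552.5 CPM and Alb at 9279.7 CPM, and 8 more libraries held Sftpc at 3.101 CPM or less. Nkx2-1, the transcription factor of lung and thyroid epithelium, which the rule did not use, was at 217, 236, 219 and 209 CPM in the live and at 215, 245 and 237 CPM in the dead libraries after scaling (log2 difference 0.09, 95% interval -0.20 to 0.39). This second marker thus matched the lung content of all 7. By label, both null NAC libraries of the series held liver content, with Sftpc at 0.7793 and 1.077 CPM. Both null placebo libraries held Sftpc, at 5552.5 and 7025 CPM, so exchanging lung and liver labels would not pair these pools. Whether the labels of survival, genotype and treatment are right was not tested, and every comparison below rests on them.

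Totals per library lay between 7236873 and 11808825 counts (median 8760947). The ribosomal RNA symbol Rn45s took 9.69%, 26.19%, 4.05% and 19.67% of the counts in the live and 15.92%, 8.16% and 19.01% in the dead libraries, so its share overlapped between the groups. The paper reports a lower average RNA quality number for lung samples of dead pups than over all sequenced samples. By tissue label that average covers only part of these dead libraries, and RNA quality was not tested here. Xist, the transcript of the inactive X chromosome, was at 0.43 CPM in the dead heterozygous placebo library and between 178 and 736 CPM in the other 6, so that the pools differed in the sexes they held. All values below are CPM scaled by the TMM factors of the 7 libraries, and a log2 difference is dead minus live with treatment held as a covariate.

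Man1a2 (chromosome 3, 100562208 to 100685503, minus strand, GRCm38) was at 60.1, 52.9, 94.8 and 81.6 CPM in the live and at 72.3, 75.0 and 76.7 CPM in the dead libraries. The null library lay within the range of the others (log2 difference of dead and live 0.02, 95% interval -0.35 to 0.39). Counts were deposited by gene and do not separate exon 2, so this value does not test the genotype labels.

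At birth the lung must clear its fluid, fill with air and spread surfactant, a lipid and protein film made by type 2 cells, while type 1 cells and capillaries form the thin surface for gas exchange. Cells short of oxygen stabilise HIF1A, which binds hypoxia response elements at genes of glycolysis, glucose and lactate transport and collagen hydroxylation. Red cells and their late precursors circulate through the organ in large numbers in newborns and carry globin, heme synthesis and membrane skeleton transcripts, and the bulk RNA of a whole lung includes them. In such bulk RNA a change in the number of cells of a type cannot be told apart from a change in RNA per cell.

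Of 13990 genes tested, none was called higher (0%) or lower (0%) in dead pups by edgeR's quasi-likelihood test, with a call set at an adjusted p under 0.05 and an absolute log2 difference of at least 1. At an unadjusted p under 0.05 there were 508 genes (3.63%), of which 385 (2.75%) were higher in the dead libraries and 123 (0.879%) were lower. All 3 dead libraries lay above all 4 live ones for 210 genes (1.5%) and below them for 163 (1.17%), while 50.1% of genes had a log2 difference above 0. DESeq2's Wald test at the same thresholds called 10 genes higher (0.0715%) and none lower (0%). They included Lcn2, Gdpd2, Chia1, Chil1, Pmvk, Mt2, Cebpd, Sprr1a and Gclc. In the edgeR test only Lcn2 (adjusted p = 0.136) and Isg20 (adjusted p = 0.646) had an adjusted p under 1.

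More genes differed by treatment than by survival. In the same fit 690 genes (4.93%) were called between NAC and placebo, 355 higher and 335 lower with NAC. On the first principal component, which held 55.3% of the variance, the live NAC libraries lay at -30.7 and -63.6 and the live placebo libraries at 40.8 and 44.8. The dead heterozygous placebo library lay at 40.5, beside the live placebo libraries, and its log2 CPM correlated at 0.982 with each of them across genes. By contrast, the dead null placebo library lay at -7.8, between the treatments, and correlated at 0.976 with the live WT NAC library and at 0.955 with the other dead placebo library. On the second component (15.7%) the dead heterozygous NAC library at 35.9 and the dead null library at 20.4 lay above all live libraries (-32.8 to 0.7), whereas the dead heterozygous placebo library at -9.8 did not. The 3 dead libraries thus did not form 1 cluster.

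**Figure D1:**
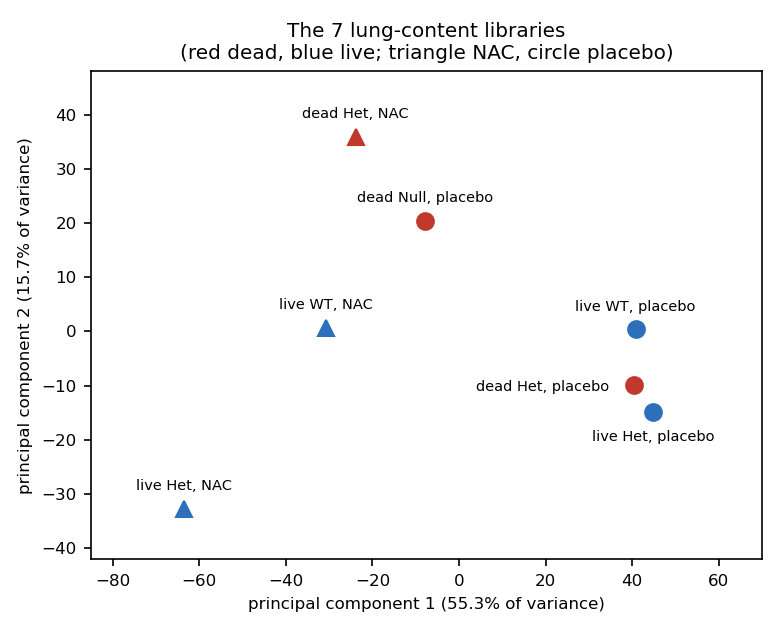
First against second principal component of log2 CPM over the 13990 genes tested, with 1 point for each of the 7 lung-content libraries, marked by survival and treatment. The dead heterozygous placebo library sits at 40.5 on the first axis beside the live placebo libraries, and the other 2 dead libraries sit highest on the second axis, at 35.9 and 20.4.

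Red cell transcripts summed to a higher level in every dead library than in any live one. Of 22 listed red cell genes, 18 passed the filter of a mean of 1 CPM, and all 18 had a log2 difference above 0, with a median of 0.82 against 0.00 over all genes. Of these 18, 10 were higher at an unadjusted p under 0.05, against 2.75% of all genes, and for 6 the dead and live libraries did not overlap, against 1.5%. None was called by edgeR. Their summed level was 13810, 16760, 9673 and 11890 CPM in the live and 24800, 23970 and 19930 CPM in the dead libraries. Most of each sum came from the globin genes, so it describes these more than the list. Only live pups were decapitated, so the blood left in the lung cannot be told apart from survival.

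Alas2 encodes the erythroid enzyme that opens heme synthesis. The gene lies on chromosome X, 150547375 to 150570638, plus strand (GRCm38). It was at 268, 268, 209 and 256 CPM in the live and at 535, 406 and 337 CPM in the dead libraries, so the groups did not overlap (1.72-fold, log2 difference 0.79 ± 0.191 SE). Leaving out any 1 library kept this difference between 0.57 and 0.91. Its proximal promoter is shown because GATA1, the master regulator of erythroid genes, binds the hexamer AGATAA or TGATAA. The 250 bases before the RefSeq start lie at chrX:150547167-150547416 (GRCm38.p6, plus strand), and capitals mark the motif, here on the opposite strand, 86 bases before the start. GENCODE places the gene's start inside this window.
Alas2: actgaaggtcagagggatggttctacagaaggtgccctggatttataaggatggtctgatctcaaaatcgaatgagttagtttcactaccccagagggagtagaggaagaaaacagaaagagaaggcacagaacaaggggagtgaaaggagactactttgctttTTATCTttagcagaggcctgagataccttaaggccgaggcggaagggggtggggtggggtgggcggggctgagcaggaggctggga
Over both strands, AGATAA or TGATAA occurred in the same window of 8 of the 14 red cell genes with a promoter in the RefSeq table (57.1%), of 17.0% of 27025 symbols and of 4 of 30 hypoxia targets (13.3%). Base composition was not matched, and a match of letters is a description and no evidence of binding.

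The globins followed the same order. Hbb-bt, an adult beta globin (chromosome 7, 103812524 to 103813996, minus strand, GRCm38), was at 870, 1060, 758 and 922 CPM in the live and at 1864, 1676 and 1332 CPM in the dead libraries (1.83-fold, log2 difference 0.88 ± 0.186 SE). Hba-a1, an alpha globin, was at 5465, 6818, 3357 and 4336 CPM in the live and at 8601, 9020 and 7750 CPM in the dead libraries (log2 difference 0.88 ± 0.225 SE). Every dead library exceeded every live one for both genes, and for Hba-a2 (0.85) and Hbb-bs (0.79). The globin genes are near-identical copies, Hba-a1 and Hba-a2 each occupy 2 entries of the table, and Hbb-b2 holds the same values as Hbb-bt, so their separate levels are uncertain and they are not independent evidence. Bpgm, which makes the 2,3-bisphosphoglycerate that loosens oxygen from hemoglobin, is a single-copy gene. It was at 86.1, 68.9, 87.9 and 102 CPM in the live and at 170, 160 and 108 CPM in the dead libraries (1.68-fold, 0.75 ± 0.195 SE).

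Not every red cell gene followed this order. Slc4a1, the band 3 anion exchanger, was at 124, 114, 51.0 and 47.2 CPM in the live and at 42.1, 291 and 123 CPM in the dead libraries, so here the dead heterozygous placebo library was the lowest of all 7 (0.97 ± 0.307 SE). Over the list, the dead heterozygous NAC library exceeded all live libraries for 18 of 18 genes, the null library for 8, and the heterozygous placebo library for 8, with 5 genes below all live libraries. At the end of heme synthesis, Fech (0.38 ± 0.186 SE) and Urod (0.09, 95% interval -0.25 to 0.43) showed smaller differences. The median of the list was 0.80 when each dead library was left out in turn and 0.66 in the heterozygous libraries alone. There Hbb-bt differed by 0.84.

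**Figure D2:**
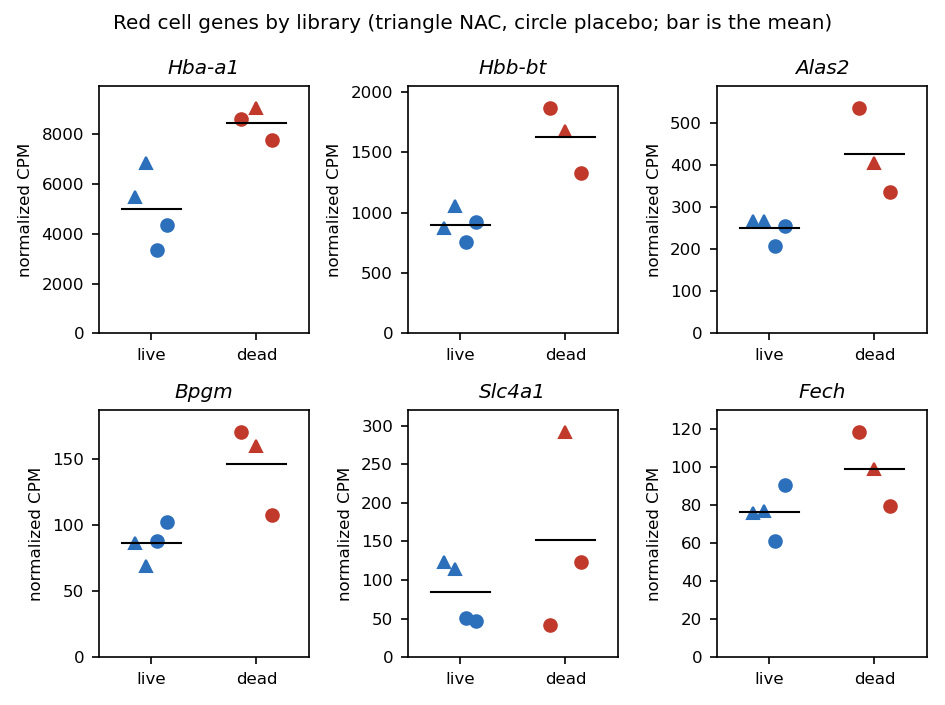
Scaled CPM (y axis, linear from 0) of 6 red cell genes in the 4 live (blue) and 3 dead (red) libraries, with triangles for NAC, circles for placebo and a bar at the mean of each group. For Hba-a1, Hbb-bt, Alas2 and Bpgm every dead library lies above every live one, while for Slc4a1 the dead heterozygous placebo library (42.1 CPM) lies below the live range, and for Fech the dead null placebo library (79.5 CPM) lies within it.

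All 34 measured hypoxia-inducible targets had a log2 difference above 0, with a median of 0.67 against 0.00 over all genes. Of them 13 were higher at an unadjusted p under 0.05 and none was lower, against 2.75% and 0.879% of all genes, and none was called by edgeR. For none of the 34 did the dead and live groups fail to overlap (1.5% of all genes). A single library stood apart: the dead heterozygous NAC library exceeded all live libraries for 27 targets and the dead null placebo library for 26, 24 of them shared, whereas the dead heterozygous placebo library did so for 0 and lay below all live libraries for 9. The median difference was 0.93 without that library and 0.24 without the null library.

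Ldha, which converts pyruvate to lactate, was at 199, 192, 201 and 189 CPM in the live and at 196, 399 and 333 CPM in the dead libraries (log2 difference 0.68 ± 0.207 SE). Slc16a3, the lactate exporter MCT4, was at 5.30, 8.19, 8.59 and 5.99 CPM in the live and at 7.31, 22.5 and 16.0 CPM in the dead libraries (1.11 ± 0.345 SE). P4ha1, a collagen prolyl hydroxylase subunit, was at 73.8, 72.6, 59.1 and 57.1 CPM in the live and at 55.2, 161 and 135 CPM in the dead libraries (0.88 ± 0.264 SE). In each of these genes 2 dead libraries stood above all 4 live ones. The dead heterozygous placebo library was within the live range for Ldha and Slc16a3 and just below it for P4ha1. Leaving that library out raised the differences to 0.90, 1.44 and 1.18. The lowest values with 1 dead library left out were 0.44 for Ldha and 0.65 for Slc16a3, each without the heterozygous NAC library, and 0.57 for P4ha1 without the null library.

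The promoters of these 3 genes are shown because each holds the core of the hypoxia response element, ACGTG, on one or the other strand. Capitals mark it, and each window covers the 250 bases before the RefSeq start on the plus strand of GRCm38.p6. The Ldha window lies at chr7:46845554-46845803, with motifs 145, 48 and 34 bases before the start. That of P4ha1 lies at chr10:59323046-59323295, with a motif 16 bases before the start, and that of Slc16a3 at chr11:120948817-120949066, with motifs 27 and 14 bases before it.
Ldha: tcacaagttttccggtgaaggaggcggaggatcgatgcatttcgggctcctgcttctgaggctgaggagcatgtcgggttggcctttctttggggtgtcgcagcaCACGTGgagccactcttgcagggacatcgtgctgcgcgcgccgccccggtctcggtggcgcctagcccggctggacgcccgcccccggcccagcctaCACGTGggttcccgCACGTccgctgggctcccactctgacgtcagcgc
P4ha1: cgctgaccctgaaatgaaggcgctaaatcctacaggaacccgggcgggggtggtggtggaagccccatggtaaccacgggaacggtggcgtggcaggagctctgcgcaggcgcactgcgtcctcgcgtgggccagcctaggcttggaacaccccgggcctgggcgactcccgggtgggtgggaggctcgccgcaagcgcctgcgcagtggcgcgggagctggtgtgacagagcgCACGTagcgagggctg
Slc16a3: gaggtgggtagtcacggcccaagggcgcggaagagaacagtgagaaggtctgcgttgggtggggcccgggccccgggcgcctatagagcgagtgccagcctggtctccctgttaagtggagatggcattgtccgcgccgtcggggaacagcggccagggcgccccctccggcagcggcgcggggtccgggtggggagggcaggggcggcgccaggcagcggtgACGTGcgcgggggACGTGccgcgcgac
ACGTG occurred in the window of 15 of the 30 targets with a promoter in the table (50.0%), of 16.6% of all symbols and of 2 of 14 red cell genes (14.3%). These targets are known ones, many of them defined by this element, and no binding was measured here.

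The glycolytic enzymes Tpi1 (105, 89.0, 99.4 and 95.3 against 91.3, 196 and 186 CPM; 0.72 ± 0.235 SE) and Gapdh (671, 726, 523 and 438 against 468, 1072 and 1291 CPM; 0.77 ± 0.303 SE) had the same split among the dead libraries. So did Aldoa (0.83 ± 0.282 SE), Pgk1 (0.70 ± 0.256 SE) and Pgam1 (0.49 ± 0.164 SE), named after their values were seen. Slc2a1, the glucose transporter GLUT1 and likewise named afterwards, was at 111, 73.9, 28.6 and 19.6 CPM in the live and at 21.3, 206 and 137 CPM in the dead libraries (1.48 ± 0.507 SE). Its live NAC libraries exceeded the live placebo libraries, so its value in the null placebo library lies above both treatments. Targets with other roles, also named afterwards, included the prolyl hydroxylase Egln3 (1.21 ± 0.581 SE), Ndrg1 (1.12 ± 0.449 SE) and the cytokine Mif (0.87 ± 0.299 SE). Without the dead null library the differences were 0.25 for Egln3, 0.28 for Ndrg1, 0.44 for Mif, 0.56 for Slc2a1, 0.30 for Gapdh, 0.41 for Aldoa and 0.32 for Pgk1. Vegfa, the endothelial growth factor, was at 354, 303, 635 and 619 CPM in the live and at 571, 414 and 761 CPM in the dead libraries (0.19, 95% interval -0.18 to 0.56). Hif1a itself differed by 0.18 (95% interval -0.15 to 0.51).

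**Figure D3:**
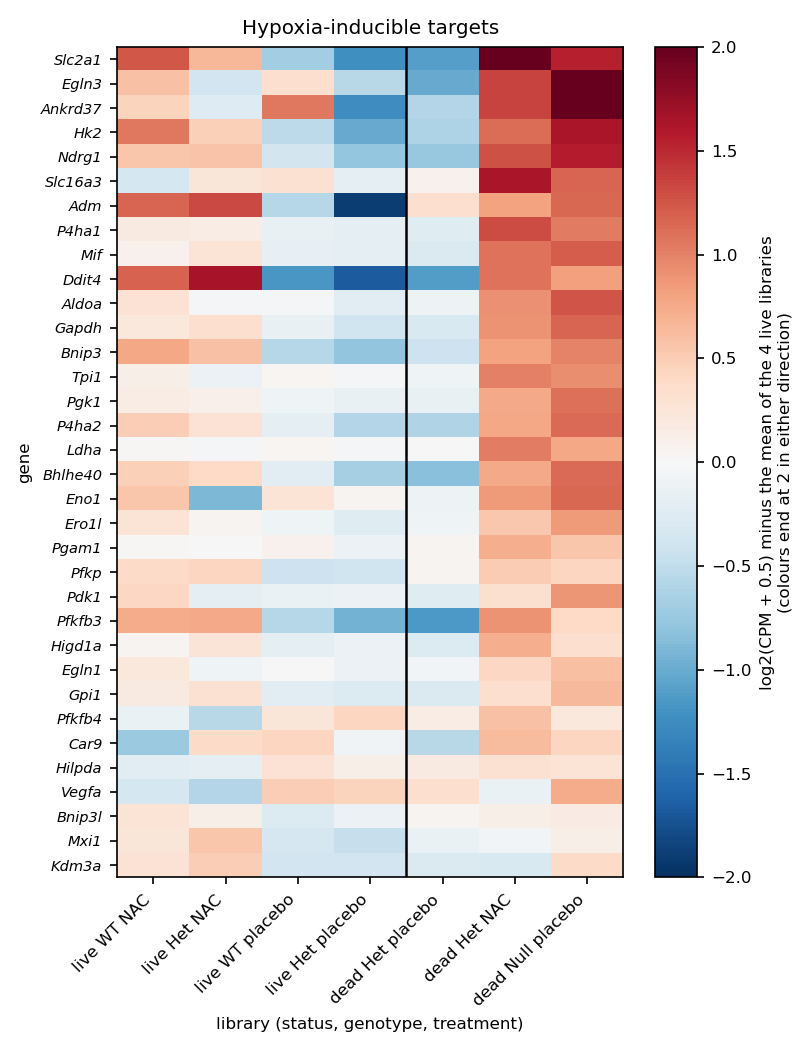
Heat map of the 34 hypoxia-inducible targets (1 gene per line) in the 7 libraries (columns, live left of the line), coloured by log2(CPM + 0.5) minus the mean of the 4 live libraries, red above and blue below that mean, with colours ending at 2 in either direction. The dead heterozygous NAC and dead null placebo columns are red for most targets, and the dead heterozygous placebo column is pale or blue for most.

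Lcn2 had the smallest p of all genes. It encodes lipocalin 2, an iron-siderophore-binding protein released by stressed epithelium and neutrophils, and lies on chromosome 2 from 32384633 to 32388252 on the minus strand (GRCm38). It was at 69.9, 60.9, 47.6 and 37.7 CPM in the live and at 90.5, 171 and 112 CPM in the dead libraries. All dead libraries exceeded all live ones, and the difference was 2.46-fold (log2 difference 1.30 ± 0.148 SE, 95% interval 0.97 to 1.64). The adjusted p of edgeR's quasi-likelihood test was 0.136 and that of DESeq2 was 6.21e-09, so the call depended on the tool. Leaving out any library kept the log2 difference between 1.23 and 1.40.

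Of 21 inflammatory cytokine and NF-kB genes that passed the filter, 20 lay above 0 (50.1% of all genes), with a median of 0.25. Higher at an unadjusted p under 0.05 were 3 (Lcn2, Cxcl15 and Ptgs2; 2.75% of all genes), and none was lower. For 3 (Lcn2, Cxcl15 and Nfkb1) every dead library lay above every live one, against 1.5% of all genes. Without the dead heterozygous NAC library 10 of the 21 lay above 0 and the median was -0.01. Cxcl15, or lungkine, a chemokine of lung epithelium, was at 532, 729, 937 and 870 CPM in the live and at 1049, 2044 and 1309 CPM in the dead libraries, without overlap (0.93 ± 0.274 SE), and its difference was 0.38 without the dead heterozygous NAC library. Ptgs2, the inducible cyclooxygenase, was at 18 CPM in the dead heterozygous NAC library and between 1.69 and 3.99 CPM in the other 6, and its difference of 1.32 became 0.05 without that library. Nfkb1, the p50 and p105 subunit of NF-kB, did not overlap between the groups, yet its difference was small (102, 95.8, 97.1 and 98.4 against 103, 121 and 112 CPM; 0.20, 95% interval -0.08 to 0.48). Il18bp, the decoy receptor of interleukin 18, differed by 0.61 (95% interval -0.29 to 1.5) at 0.998 to 2.26 CPM, and Il1a was too low to be tested. The neutrophil list, which also holds Lcn2, had a median of 0.20 over 14 genes and sums of 224.8 to 437 CPM in the live and 322.1 to 569.4 CPM in the dead libraries. Its abundant member S100a9, a calcium-binding alarmin, was at 104, 126, 53 and 74.5 against 74.5, 146 and 66.5 CPM (0.23, 95% interval -0.13 to 0.59).

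Of 19 macrophage genes 12 lay above 0, against 50.1% of all genes (median 0.22). At an unadjusted p under 0.05, 3 were higher, against 2.75% of all genes. Without the dead heterozygous NAC library 5 lay above 0, the median was -0.34 and none was higher at that threshold. The 3 genes were Cd14, the lipopolysaccharide co-receptor (0.68 ± 0.188 SE), Lyz2, the lysozyme of macrophages and type 2 cells (0.85 ± 0.301 SE), and C1qb, a complement subunit (0.78 ± 0.320 SE). C1qb was highest in the dead heterozygous NAC library, at 35.9 CPM against 8.90 to 19.3 in the other 6, and its difference was 0.09 without it. Without the same library Lyz2 differed by 0.30 and Cd14 by 0.35. Gzma and Gzmb, granzymes of cytotoxic lymphocytes, were at 1.61, 13.4 and 6.79 CPM and at 1.18, 7.03 and 6.51 CPM in the dead libraries, against at most 3.92 and 2.26 CPM in the live ones. Once more the dead heterozygous placebo library did not stand above the live ones, and for Gzma it was below all of them (1.37 ± 0.496 and 1.62 ± 0.559 SE).

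Several genes outside the lists stood apart and were chosen after their values were seen. Isg20, an interferon-induced exonuclease (chromosome 7, 78913424 to 78920396, plus strand, GRCm38), was at 23.0, 23.1, 21.2 and 20.8 CPM in the live and at 35.6, 42.7 and 37.5 CPM in the dead libraries. Both groups were tight, and the difference was 1.78-fold (0.83 ± 0.126 SE), under the fold criterion. Chil1, a chitinase-like protein without chitinase activity, was at 141, 191, 336 and 244 CPM in the live and at 365, 704 and 590 CPM in the dead libraries (1.29 ± 0.305 SE), and its difference was 0.72 without the dead heterozygous NAC library. Chia1, an active acidic chitinase, was at 23.8, 16.4, 25.1 and 23.4 against 35.9, 48.2 and 52.3 CPM (1.02 ± 0.193 SE). For all 3 genes, and for the serpin Serpina3g (0.93 ± 0.168 SE), no dead library overlapped a live one. Sprr1a, a cornified envelope protein, was at 2.26, 0.712, 0.399 and 0.665 against 0.86, 13.3 and 2.69 CPM (2.45 ± 0.545 SE), with most of the difference in the dead heterozygous NAC library. Gdpd2 (1.2 ± 0.251 SE) and Pmvk, a kinase of the mevalonate pathway (1.14 ± 0.259 SE), were higher in the dead libraries within each treatment, and their groups overlapped across treatments.

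**Figure D4:**
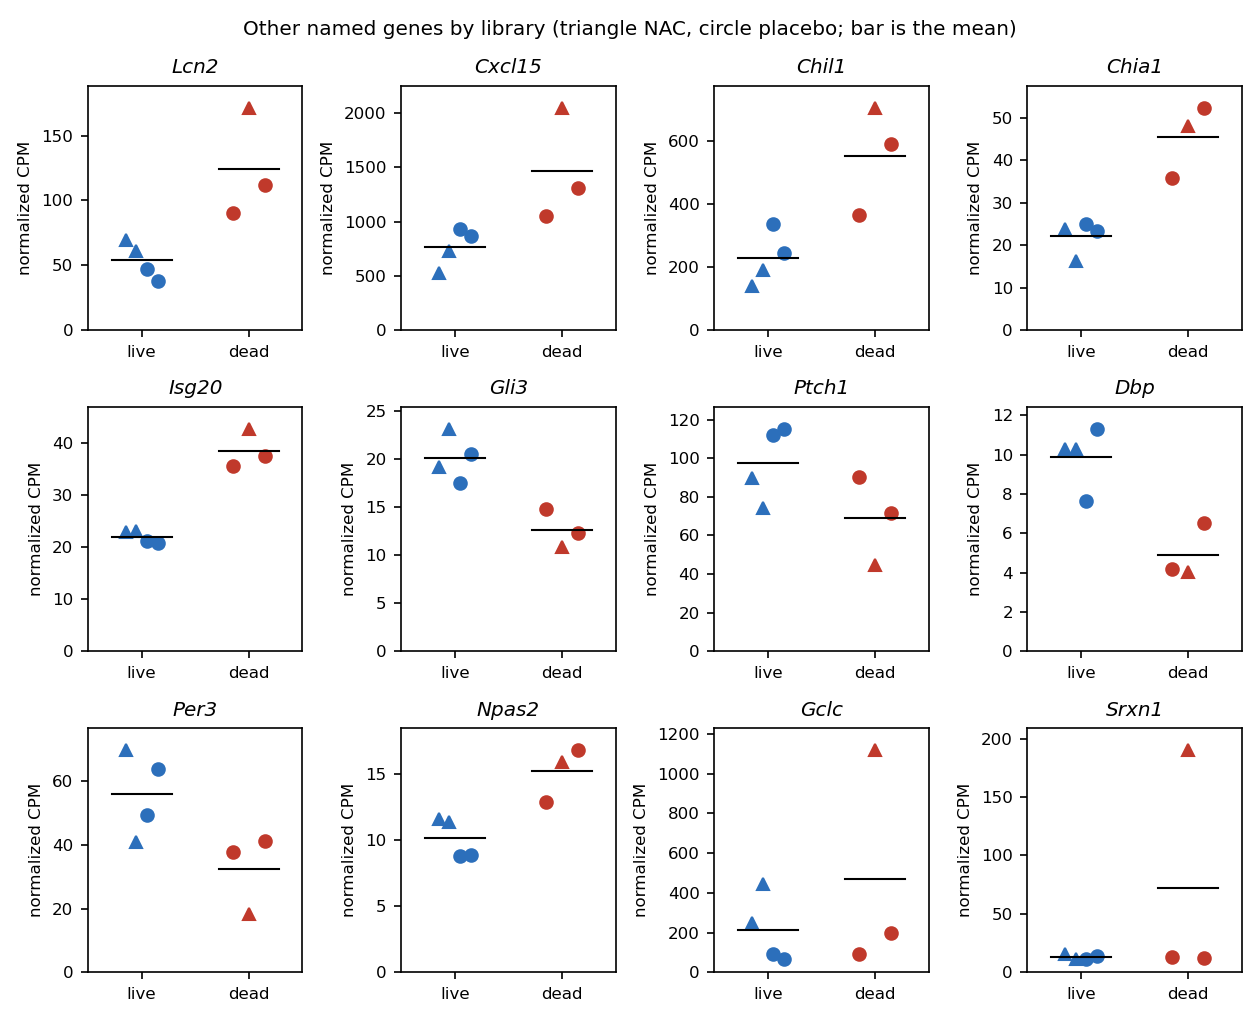
Scaled CPM (y axis, linear from 0) of 12 named genes outside the red cell and hypoxia lists in the 4 live (blue) and 3 dead (red) libraries, with triangles for NAC, circles for placebo and a bar at the mean of each group. For Lcn2 the dead libraries lie at 90.5 to 171 CPM and the live ones at 37.7 to 69.9 CPM, and for Dbp the dead ones lie at 4.06 to 6.51 CPM, below the live ones.

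Redox genes leaned upward. Of 26 NRF2 and glutathione genes 25 had a log2 difference above 0, against 50.1% of all genes (median 0.24). At an unadjusted p under 0.05, 6 were higher, against 2.75% of all genes. Gclc, the catalytic subunit of the enzyme that limits glutathione synthesis, was at 249, 443, 91.8 and 65.6 CPM in the live and at 93.5, 1118 and 196 CPM in the dead libraries (1.22 ± 0.312 SE). Gpx3, the secreted glutathione peroxidase, was at 913, 580, 180 and 101 against 332, 966 and 876 CPM (1.47 ± 0.474 SE), a difference of 0.82 without the dead null library. Both genes were higher with NAC among the live libraries, and the dead placebo libraries lay above the live placebo libraries. For Gclc the dead heterozygous placebo library (93.5 CPM) was close to the live WT placebo library (91.8 CPM). Without the dead heterozygous NAC library Gclc differed by 0.87. Gpx1, the cytosolic peroxidase, was at 211, 237, 211 and 263 against 284, 369 and 273 CPM (0.43 ± 0.161 SE). It was 1 of 2 list genes with all dead libraries above all live ones, against 1.5% of all genes. Srxn1, which encodes sulfiredoxin, was at 190 CPM in the dead heterozygous NAC library and between 11.5 and 15.6 CPM in all others. Without that library its difference of 1.74 became -0.01, and the median of the list fell from 0.24 to 0.06.

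Glucocorticoid and fasting response genes had a median of 0.44, with 4 of 22 higher at an unadjusted p under 0.05 (2.75% of all genes) and none lower. The list moved with single libraries: its median was 0.06 without the dead null library and -0.01 in the heterozygous libraries alone, but 0.78 with 12 genes higher without the dead heterozygous NAC library. Mt2, a metal-binding metallothionein, was at 23.5, 24.6, 19.9 and 18.6 CPM in the live and at 22, 96.6 and 43.2 CPM in the dead libraries (1.29 ± 0.292 SE). Cebpd, a transcription factor of the acute phase, was at 195, 175, 39.8 and 30.5 against 60.8, 301 and 150 CPM (1.24 ± 0.316 SE). DESeq2 called both, with adjusted p of 0.0294 and 0.0387. Mt1 (0.80 ± 0.261 SE) and Pdk4, the kinase that limits pyruvate oxidation (1.44 ± 0.492 SE), were the other 2. Without the dead heterozygous NAC library Mt2 differed by 0.75 and Mt1 by 0.49, and without the dead null library Cebpd by 0.74 and Pdk4 by 0.94. Like Cebpd, Pdk4 was at 10.2 and 6.87 CPM in the live placebo and at 96.0 and 106 CPM in the live NAC libraries, a wider gap than between the dead and live groups. Txnip, the thioredoxin inhibitor, differed by 0.08 (95% interval -0.68 to 0.84).

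Among 31 immediate-early genes 5 were higher at an unadjusted p under 0.05, against 2.75% of all genes, and none was lower (median 0.15). Without the dead null library 14 of the 31 lay above 0 and the median was -0.07. They included Maff (0.91 ± 0.248 SE), a small partner of NRF2 and related factors, and the orphan nuclear receptors Nr4a1 (0.79 ± 0.244 SE), Nr4a2 (0.70 ± 0.241 SE) and Nr4a3 (1.56 ± 0.556 SE). Nr4a1 was at 109, 81.7, 29.2 and 17.5 CPM in the live and at 26.1, 200 and 44.3 CPM in the dead libraries, so the groups overlapped. Jun, a subunit of AP-1, was at 1450 CPM in the live WT NAC library against 183 to 437 in the other 6 (-0.46, 95% interval -1.51 to 0.59). Heat shock and chaperone genes had 2 of 19 higher, against 2.75% of all genes, Hspb8 (0.60 ± 0.228 SE) and Hspe1 (0.35 ± 0.147 SE). Hspa1a, the inducible HSP70, was at 98.7, 255, 7.19 and 5.65 against 9.56, 18.6 and 109 CPM, a range too wide to compare (1.43, 95% interval -2.24 to 5.10). Of 24 unfolded protein response genes none had an unadjusted p under 0.05, and the endoplasmic reticulum chaperone Hspa5 differed by 0.05 (95% interval -0.36 to 0.46). Among 21 genes of p53 and apoptosis, 1 did (3.63% of all genes), the kinase gene Plk3 (0.79 ± 0.269 SE).

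Among the lung's own cells, 14 surfactant and type 2 cell genes were measured beside the selecting gene Sftpc. Of these 12 lay above 0 (50.1% of all genes), with a median of 0.31. At an unadjusted p under 0.05, 2 were higher (2.75% of all genes), Lamp3 and Lyz2. Lamp3, a lysosomal and lamellar body protein of type 2 cells, was at 212, 258, 437 and 332 CPM in the live and at 397, 655 and 523 CPM in the dead libraries (0.77 ± 0.261 SE), and its difference was 0.26 without the dead heterozygous NAC library. Surfactant protein genes Sftpa1 (0.66, 95% interval -0.06 to 1.38) and Sftpb (0.44, 95% interval -0.15 to 1.02) were highest in that library, without which the list median, Sftpc included, was 0.00. None of 13 type 1 cell genes had an unadjusted p under 0.05. Ager, a membrane receptor abundant in type 1 cells, differed by 0.05 (95% interval -0.35 to 0.46), and the water channel Aqp5 by 0.32 (95% interval -0.02 to 0.66).

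In the airway, Scgb1a1, the club cell secretoglobin, differed by 0.12 (95% interval -0.29 to 0.53). Of 11 club list genes 1 was higher at an unadjusted p under 0.05 (2.75% of all genes), Reg3g, an antibacterial lectin of airway epithelium. It was at 30.2, 6.41, 5.52 and 7.43 against 12.9, 39.1 and 34.0 CPM (1.52 ± 0.5 SE), with the live WT NAC library at the level of the dead ones. Of 24 multiciliated cell genes 1 was lower at an unadjusted p under 0.05, against 0.879% of all genes. This was Trp73, a regulator of multiciliated cell formation, at 6.43, 4.81, 5.99 and 5.54 against 3.87, 4.17 and 2.55 CPM (-0.67 ± 0.28 SE). It alone of the list had all dead libraries below all live ones (1.17% of all genes). Foxj1, the master factor of motile cilia, differed by -0.18 (95% interval -0.51 to 0.14). None of the 14 fluid clearance genes had an unadjusted p under 0.05. The sodium pump subunit Atp1b1 differed by 0.45 (95% interval -0.17 to 1.07), and the sodium channel subunits Scnn1a by 0.15 (-0.47 to 0.77), Scnn1b by -0.04 (-0.54 to 0.45) and Scnn1g by 0.23 (-0.32 to 0.77), the channel genes having been named after their values were seen.

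In the vessel wall, the adhesion molecule Pecam1 differed by 0.00 (95% interval -0.33 to 0.34) and the endothelial cadherin Cdh5 by -0.01 (95% interval -0.42 to 0.41). Tek, the angiopoietin receptor TIE2, was at 213, 132, 209 and 207 against 200, 92.3 and 147 CPM (-0.51 ± 0.224 SE), and Eng, a co-receptor of the TGF-beta family, at 279, 328, 213 and 156 against 254, 439 and 201 CPM (0.39 ± 0.170 SE). These were the 2 of 19 endothelial genes with an unadjusted p under 0.05, against 3.63% of all genes. None of 22 fibroblast, elastic fibre and collagen genes reached that p, and 1 had all dead libraries below all live ones (1.17% of all genes). Eln, the elastin gene, differed by 0.23 (95% interval -0.43 to 0.89), and Col5a1, a fibrillar collagen chain, lay lower in all dead libraries (361, 318, 265 and 260 against 212, 255 and 239 CPM; -0.30 ± 0.140 SE).

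Among 30 regulators of lung development 3 had an unadjusted p under 0.05 (3.63% of all genes), Ptch1 and Gli3 lower and Klf5 higher. Gli3, a Hedgehog pathway transcription factor that acts mostly as a repressor (chromosome 13, 15463235 to 15730026, plus strand, GRCm38), was at 19.2, 23.1, 17.5 and 20.5 CPM in the live and at 14.8, 10.9 and 12.3 CPM in the dead libraries. The groups did not overlap (-0.66 ± 0.187 SE). Gli3 was the 1 regulator with all dead libraries below all live ones, against 1.17% of all genes. Ptch1, the Hedgehog receptor and itself a target of the pathway, was at 89.5, 74.4, 112 and 115 against 90.3, 44.7 and 71.7 CPM, lower in the dead libraries within each treatment (-0.64 ± 0.157 SE). The rest of the pathway did not share this order. Gli1, the target most used as its readout, was at 9.36, 11.2, 42.1 and 44.2 against 33.3, 13.1 and 11.6 CPM (-0.45, 95% interval -1.27 to 0.38), and the ligand Shh (-0.07, 95% interval -0.68 to 0.54), Gli2 (0.09) and the decoy receptor Hhip (0.23) had intervals that held 0. Klf5, an epithelial factor, was highest in the dead heterozygous NAC library (28.2, 37.9, 30.0 and 27.9 against 27.0, 72.8 and 37.5 CPM; 0.57 ± 0.229 SE) and differed by 0.15 without it. Foxf1, a mesenchymal and endothelial factor, differed by -0.07 (95% interval -0.44 to 0.30) and the growth factor Bmp4 by 0.04 (95% interval -0.58 to 0.66).

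Of 17 clock genes 3 had an unadjusted p under 0.05 (3.63% of all genes). All dead libraries lay below all live ones for 1 (1.17% of all genes) and above them for 1 (1.5%). Dbp, a clock output transcription factor (chromosome 7, 45705088 to 45710203, plus strand, GRCm38), was at 10.3, 10.3, 7.65 and 11.3 CPM in the live and at 4.19, 4.06 and 6.51 CPM in the dead libraries, without overlap (-1.02 ± 0.273 SE). Per3, a period gene, was at 69.7, 41.0, 49.4 and 63.9 against 37.8, 18.3 and 41.3 CPM (-0.92 ± 0.274 SE), and its difference was -0.51 without the dead heterozygous NAC library. Npas2, a paralog of Clock that drives such genes, was higher in all dead libraries (11.6, 11.4, 8.79 and 8.87 against 12.9, 15.9 and 16.8 CPM; 0.64 ± 0.183 SE). Nr1d2, a repressor in the loop, was at 112, 170, 46.6 and 48.3 against 39.9, 61.1 and 49.9 CPM (-0.51 ± 0.260 SE). The median of the list was -0.04 with all libraries, -0.38 without the dead null library and 0.37 without the dead heterozygous NAC library. The clock time of harvest cannot be told apart from survival here.

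Cell cycle genes leaned downward, with 27 of 33 below 0 and a median of -0.19, while 50.1% of all genes lay above 0. None of the 33 had an unadjusted p under 0.05. All dead libraries lay below all live ones for 2 (1.17% of all genes), Cdc20 and Cenpf, both of mitosis. Cenpf stood at 30.3 CPM in the live heterozygous NAC library against 7.24 to 8.72 in all others. The median was -0.04 without the dead null library, which lay below all live libraries for 18 of the 33 genes. Of 20 N-glycan processing genes 1 had an unadjusted p under 0.05 (3.63% of all genes), Mogs, the glucosidase that acts first on the glycan (-0.39 ± 0.165 SE). Man1a, a close relative of Man1a2, was at 33.3, 40.8, 30.4 and 25.9 against 26.4, 53.8 and 39.9 CPM (0.36, 95% interval -0.05 to 0.76).

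Markers of other tissues were measured in the same libraries. Of 9 skeletal muscle genes 5 were lower at an unadjusted p under 0.05, against 0.879% of all genes, with a median of -1.32. Without the dead heterozygous NAC library 1 of the 9 was lower at that threshold and the median was -0.74. Mylpf, a fast muscle myosin light chain, was at 7.78, 6.05, 2.40 and 4.66 CPM in the live and at 1.07, 1.87 and 1.13 CPM in the dead libraries (-1.75 ± 0.367 SE), and Myh8, the perinatal myosin heavy chain, at 6.54, 2.67, 2.60 and 4.32 against 1.72, 0.768 and 0.99 CPM (-1.75 ± 0.504 SE). Neither overlapped (1.17% of all genes lay lower in all dead libraries), whereas Ckm, muscle creatine kinase, differed by 0.19 (95% interval -0.36 to 0.75). The summed level of these genes was 33.41 to 102.5 CPM in the live and 32.35 to 41.03 CPM in the dead libraries. Of 11 heart muscle genes 10 lay above 0, against 50.1% of all genes (median 0.53, and 1.02 in the heterozygous libraries alone). At an unadjusted p under 0.05, 1 was higher (2.75% of all genes), Ryr2, the cardiac calcium release channel (0.70 ± 0.216 SE). In the heterozygous libraries alone 9 of the 11 were higher at that threshold, against 272 of 13969 genes. The heart muscle sums of 226.8 to 642.4 CPM in the live and 435.5 to 677.4 CPM in the dead libraries overlapped. Fat genes had 5 of 5 above 0 (50.1% of all genes), and 2 were higher at an unadjusted p under 0.05 (2.75% of all genes). Fabp4, the fatty acid carrier of fat cells and capillaries, was at 23.4, 24.6, 9.12 and 6.32 against 18.3, 32.8 and 21.4 CPM (0.98 ± 0.228 SE).

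Of 14 hepatocyte genes measured beside the selecting gene Alb, 10 lay below 0 and 4 above it, with a median of -1.09, while 50.1% of all genes lay above 0. With Alb included, their sums were 359.7 to 1063 CPM in the live and 243.9 to 1479 CPM in the dead libraries. Afp, the fetal serum protein, was at 13.9, 30.4, 2.53 and 37.9 CPM in the live and at 4.30, 8.67 and 8.06 CPM in the dead libraries (-1.55, 95% interval -3.22 to 0.13), so the live WT placebo library was the lowest of all. Trf, the iron carrier transferrin, went the other way and split as the hypoxia targets did, at 792, 748, 326 and 269 against 188, 1388 and 862 CPM (0.83 ± 0.406 SE). Liver transcripts at these levels are small beside the Alb level of the liver-content libraries, and their part in the other results was not tested.

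Genotype could be held only among the heterozygous libraries, 2 dead and 2 live. Of 13969 genes 3 were called higher in the dead ones by edgeR (0.0215%) and 4 lower (0.0286%), 1 of them Alb, which the rule used, so that its call is no test. The higher genes were Ankrd1, a stretch-responsive protein of muscle (log2 difference 3.24, adjusted p = 0.00358), Inmt, a methyltransferase abundant in lung (2.20, adjusted p = 0.0177), and Spink5, a protease inhibitor of epithelia (1.65, adjusted p = 0.0359). The lower genes beside Alb were the liver products Ahsg (-2.45), Afp (-2.45) and Apoa1 (-2.25). All are on the hepatocyte list with Alb, so their calls are not independent of the gene the rule used. With the WT and null libraries back in, Ankrd1 was at 31.9, 4.10, 7.19 and 2.88 against 25.9, 41.2 and 15.1 CPM and Inmt at 275, 37.0, 77.0 and 50.2 against 173, 230 and 313 CPM. In both genes the live WT NAC library stood at the level of the dead ones (1.63 ± 0.573 and 1.41 ± 0.610 SE). Spink5 did not overlap (61.3, 36.0, 71.1 and 26.2 against 71.7, 130 and 99.3 CPM; 1.05 ± 0.331 SE).

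**Figure D5:**
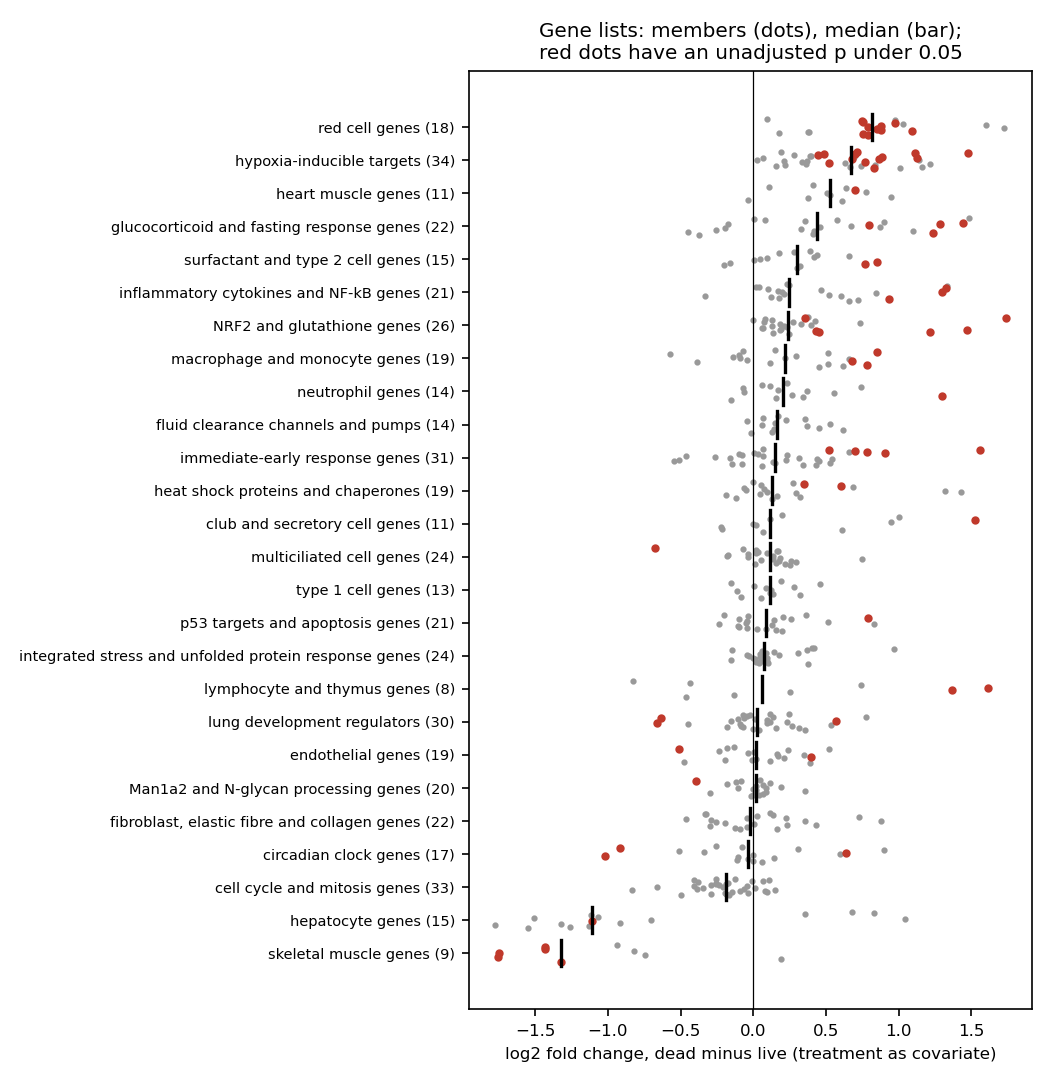
Log2 difference of dead minus live (x axis) for each member tested in the lists with at least 8 such members (dots, red at an unadjusted p under 0.05), with a bar at the median of each list and the number of members beside its name. Red cell genes (median 0.82) and hypoxia-inducible targets (0.67) lie wholly above 0, and skeletal muscle genes have a median of -1.32.

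Dead and live pups were also compared in the 8 liver-content libraries, to ask which differences were particular to lung content. The 4 dead ones were a heterozygous placebo library labelled liver, a heterozygous NAC library labelled lung and 2 null NAC libraries, labelled lung and liver, which may come from the same pups. The 4 live ones were WT and heterozygous NAC libraries labelled liver and WT and heterozygous placebo libraries labelled lung. By their labels, null pups were thus on NAC in liver content and on placebo in lung content. Genotype with treatment therefore cannot be told apart from the kind of library here. No gene of 14175 was called for a different effect in the 2 kinds of library by edgeR (0%), with 547 (3.86%) at an unadjusted p under 0.05, 256 with the lung effect above the liver effect and 291 below it. DESeq2 called 5 genes, Rab30, Wnt4, Myo16, Setdb2 and Tmprss2, all with a lower effect in lung content. Rab30, a Golgi GTPase, had the smallest adjusted p in edgeR (0.315), with a log2 difference of -0.77 in lung content and 3.29 in liver content. Wnt4, a Wnt ligand, differed by -0.08 in lung content and by 2.1 in liver content. In the other direction, Spry4, an inhibitor of growth factor signalling, differed by 0.58 and -0.92.

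For the lists, the medians in liver content were 0.15 for red cell genes against 0.82 in lung content, 0.02 against 0.67 for hypoxia targets, and -0.24 against 0.24 for NRF2 and glutathione genes. Newborn liver itself makes red cells. Lcn2 differed by 0.30 in liver content against 1.30 in lung content, and Hbb-bt by 0.15 against 0.88. No gene of these lists was called for the difference between the kinds of library, so none of the differences described here was shown to be particular to lung.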

How the data were processed

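RNA of pooled newborn lung and liver was sequenced from stranded libraries, and the authors deposited estimated counts per gene symbol, without normalization. Per the labels, edgeR 3.30.3 and R 4.0.3 were among the tools and mm10 was the build. The study's methods name the OSA aligner with an Ensembl mouse index and keep uniquely mapped reads. Whether counting used strand is not given in the sources used here. The table has 25054 entries, of which 329 symbols occupy 962, kept apart. Between 6.5% and 8.24% of the values of a library were not whole and were rounded. The columns were mapped to samples by their labels. Fold changes and p-values of the study were not used.

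Libraries entered by the rule on raw Sftpc and Alb CPM. edgeR 4.0.16 in R 4.3.3 fitted survival with treatment as covariate (quasi-likelihood test, TMM factors, mean of at least 1 CPM, Benjamini-Hochberg over all genes tested). A gene was called at an adjusted p under 0.05 and an absolute log2 difference of at least 1. The common biological coefficient of variation was 0.212. DESeq2 1.42.0 was an alternative. Scaling, filter, covariates, thresholds, an assumed coefficient of variation of 0.2, heterozygous libraries alone and leaving out each library were tried as alternatives, and summing repeated symbols and removing Rn45s were chosen after seeing the data. Genes were named by rule: in each list up to 4 with the smallest p and up to 2 with the highest CPM, Man1a2, genes the study names, and up to 5 per direction in the lung and liver difference. Since no gene was called, the part of the rule on called genes gave none. Others are said to be chosen after their values were seen. So were the red cell genes Bpgm, Hbb-bs, Slc4a1, Fech and Urod and the Hedgehog genes Gli1, Gli2, Shh and Hhip. The libraries compared and the gene lists were chosen with earlier results of these data known. The steps were tested on simulated data. Gene positions are from GENCODE on GRCm38 and promoters from RefSeq on GRCm38.p6. Each value rests on 7236873 to 11808825 counts, and nothing in the labels states that pools were independent litters. The results for 2 genes are left out of the text.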

Additional observations from a re-analysis of the deposited data

Results flagged for a closer look

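Of 159 genes followed, 7 had 1 of the 4 live libraries far from the other 3, by a gap test that flags about 1 in 20 groups by chance. That count is near the rate of chance, so the libraries below are described and not shown to be unusual. In the live WT NAC library, Sprr1a was at 2.26 CPM against 0.399 to 0.712 in the other live libraries, Reg3g at 30.2 against 5.52 to 7.43, Ankrd1 at 31.9 against 2.88 to 7.19 and Inmt at 275 against 37.0 to 77.0. In the live heterozygous NAC library, Tek was at 132 CPM against 207 to 213, Cenpf at 30.3 against 8.54 to 8.72 and Vnn3, a pantetheinase, at 7.66 against 11.3 to 11.5. The groups of 3 dead libraries were too small for this test. The dead null placebo library labelled lung was left out because it held both contents. In it Sftpc was at 5552.5 CPM, within the 4446.1 to 11757.8 CPM of the live lung-content libraries, and Alb at 9279.7 CPM, above their 16.77 to 135 CPM.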

How the results depend on the processing

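The number of genes called between dead and live pups was 0 in each direction under both other scalings, a filter at 10 CPM, the other covariates, an adjusted p alone or under 0.1, summed symbols, removal of Rn45s and, for each library left out, a range of 0 to 0. It was 10 higher with DESeq2, 127 higher and 33 lower with an assumed coefficient of variation of 0.2, 1 higher without a filter (Lcn2), and 3 higher and 4 lower in heterozygous libraries alone. The cause was not tested. For the difference between lung and liver content, genes with the lower effect in lung numbered 5 with DESeq2, 1 with pup group and treatment as a block (Setdb2) and 0 to 1 when leaving out each library in turn (Setdb2 without the dead null NAC library labelled liver). Of 159 genes followed over 21 alternatives, 39 had another sign under at least 1, among them 4 of the 89 with an absolute log2 difference of at least 0.5 (Srxn1, Per1, Hspa1a and Cdkn1a). List medians ranged from 0.66 to 0.90 for red cell genes, 0.24 to 0.93 for hypoxia targets, 0.06 to 0.38 for NRF2 genes, 0.00 to 0.40 for surfactant genes, -1.68 to -0.57 for skeletal muscle genes, -0.40 to -0.04 for cell cycle genes and -2.44 to -0.13 for hepatocyte genes. No member of the lymphocyte, pancreas and cartilage lists had a mean of 10 CPM or more, so that filter gave no median for them. With 7 pooled libraries and 3 dead pools of 2 genotypes, real differences may have been missed, and the size that could be detected was not computed.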
